A study of Homo sapiens with 6 samples.

Results

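The genes described here encode collagens, laminin chains, nidogens, perlecan, fibronectin, SPARC, fibrillins and small leucine-rich proteoglycans, the proteins that build interstitial matrix and basement membrane. They were chosen by symbol: every autosomal protein-coding collagen gene (COL followed by a number, A and a number) and laminin gene (LAMA, LAMB or LAMC with a number), plus FN1, SPARC, LUM, DCN, FMOD, NID1, NID2, HSPG2, FBN1 and FBN2. This gave 64 of the 62703 genes in the count tables, which hold 18933 autosomal protein-coding genes. BGN, COL4A5 and COL4A6 lie on the X chromosome and are therefore not among them. RNA was sequenced from MDA-MB-231 cells, a human triple-negative breast cancer line with a mesenchymal phenotype, carrying short hairpin RNA against RNF20 (shRNF20, 3 libraries) or a control hairpin (shControl, 3 libraries). RNF20 is the E3 ligase that, with RNF40, places ubiquitin on histone H2B in transcribed genes. No label says how many hairpins were used, whether cells were pools or clones, or whether the libraries of a group came from separate cultures. The p-values thus set the difference between groups only against the spread between libraries of a group, and that spread may be technical.

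Collagens are trimers of alpha chains wound into a triple helix, and a trimer forms only if the right chains are made in the same cell. Fibrillar collagens make up fibrils, FACIT collagens decorate their surface, and type IV collagen forms the sheet of basement membranes. Laminins are cross-shaped trimers of 1 alpha, 1 beta and 1 gamma chain that cells lay down beneath themselves and bind through integrins, while lumican, decorin and fibromodulin are small proteoglycans that bind collagen fibrils.

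The libraries held 26000971, 21988826 and 28265573 gene counts in shRNF20 and 29685306, 25269535 and 23786533 in shControl. RNF20 itself stood at 14.1, 12.2 and 11.1 CPM (counts per 1000000 counts, with TMM-scaled library sizes) in shRNF20 against 57.8, 58.5 and 58.0 CPM in shControl (log2 fold change, written log2 change from here on, of -2.22 with an SE of 0.11, edgeR adjusted p = 5.23e-06). The shRNF20 libraries lay far closer to each other than the shControl libraries did: a chi-square statistic over genes came to 2.05 to 6.95 per degree of freedom between pairs of shRNF20 libraries and to 32.5 to 53.3 between pairs of shControl libraries. Mitochondrially encoded RNA took 4.91% to 6.22% of gene counts in shRNF20 and 0.934% to 1.38% in shControl. With these genes left out of the fit, 6 of the genes described below rose and 21 fell, against 7 and 21 with them. In bulk RNA, fewer cells that make a transcript and less transcript per cell cannot be told apart.

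Matrix genes took a smaller share of the shRNF20 libraries. The 64 genes together held 0.385%, 0.398% and 0.403% of gene counts in shRNF20 and 0.622%, 0.707% and 0.698% in shControl. The groups did not overlap in this share. Of the 64, 43 had enough counts to be tested with edgeR's quasi-likelihood test, with Benjamini-Hochberg adjustment over 15797 genes and a threshold of 0.05. Of these 43, 28 passed (65.1%, against 58.4% of all tested genes): 21 fell, 7 rose and 15 did not pass. Across all tested genes 29.8% fell and 28.7% rose, so the 21 are more than that background share gives and the 7 are fewer. The median log2 fold change of the 43 was -0.59, against -0.01 over all tested genes. It was -0.33 without shControl replicate 1 and -0.39 without shControl replicate 3, and without shRNF20 replicate 2 the rises numbered 4. With the 3 shRNF20 libraries summed to 1 sample, 3 members rose and 11 fell. At least a 2-fold fall was found for 16 of the 43 (11.7% of all tested genes) and at least a 2-fold rise for 6 (10.5% of all tested genes).

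The 43 are not all members, and for some the filter on low counts decided what could be seen. It asked for about 0.390 CPM in 3 libraries. COL11A2, COL24A1, COL3A1, LAMA2 and NID2 reached that level in all 3 libraries of shRNF20 but not of shControl, and COL4A3 did so in shControl alone, while COL1A2, FBN2 and SPARC reached it in no complete group. The other 34 reached it in every library. Of the 28 tested members with an average log2-CPM of at least 2, 18 fell and 2 rose, whereas of the 15 below that level 3 fell and 5 rose. Among all tested genes 34.0% fell and 29.6% rose at the higher level, and 19.6% fell and 26.3% rose at the lower one. Of the 5 low-level rises, COL11A2, COL24A1, COL3A1 and NID2 were tested only because of their level in shRNF20, so nothing is drawn from the split.

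**Figure D1:**
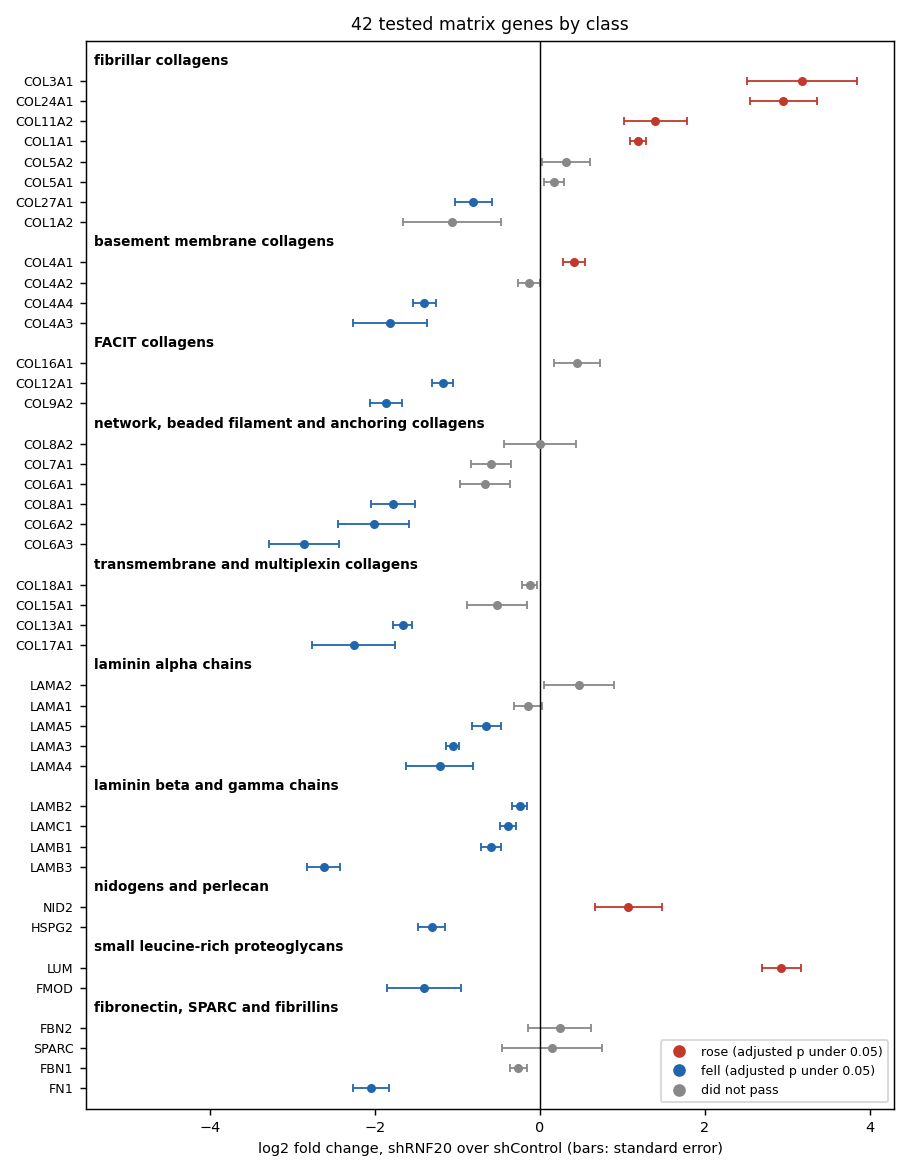
Log2 fold change of shRNF20 over shControl (horizontal axis) with its standard error for 42 matrix genes tested, grouped by class. LAMB3, FN1 and COL13A1 lie far left of 0. Of the 8 fibrillar collagens 4 rose (28.7% of all tested genes did). Among these 4, COL11A2, COL24A1 and COL3A1 were tested only because of their level in shRNF20, so the count is no evidence about the class.

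LAMB3 and LAMA3, which encode chains of the laminin that anchors epithelial cells to their basement membrane, both fell. LAMB3, a beta chain (ENSG00000196878.15, GRCh38 chromosome 1, 209614870 to 209652466, minus strand), stood at 58.1, 59.1 and 64.1 CPM in shRNF20 against 511, 286 and 319.5 CPM in shControl. Every shRNF20 library was below every shControl library, and the mRNA was 6.16-fold lower (log2 change -2.62, SE 0.21, edgeR adjusted p = 2.81e-05). LAMA3, an alpha chain (chromosome 18, 23689443 to 23956222, plus strand), was at 47.7, 54.8 and 49.3 CPM in shRNF20 against 106, 107 and 103 CPM in shControl. The groups were tight and far apart, and it fell 2.08-fold (log2 change -1.06, SE 0.08, edgeR adjusted p = 2.09e-05). Both genes kept their call in every alternative run.

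The windows around the annotated starts of LAMA3 and LAMB3 are shown because both genes fell with no overlap between groups and their windows differ in motifs. They come from RefSeq (GRCh38.p14) and run from 250 bases before to 50 bases from the start, 5′ to 3′ on the strand of the gene. The LAMA3 window is chr18:23872770-23873069 on the plus strand. It lies inside the gene, not at its first annotated start. The LAMB3 window is chr1:209652376-209652675 on the minus strand. Capitals mark TGANTCA, the AP-1 element, and GGGCGG, the GC box, on either strand; TATAAA was searched too and is in none of the windows printed here.
LAMA3: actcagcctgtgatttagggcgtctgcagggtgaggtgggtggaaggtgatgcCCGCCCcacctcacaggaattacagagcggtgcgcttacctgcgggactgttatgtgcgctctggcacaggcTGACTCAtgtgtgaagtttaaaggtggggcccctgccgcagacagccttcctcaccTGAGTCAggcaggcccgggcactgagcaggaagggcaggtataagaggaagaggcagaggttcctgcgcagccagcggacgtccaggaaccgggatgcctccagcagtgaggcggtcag
LAMB3: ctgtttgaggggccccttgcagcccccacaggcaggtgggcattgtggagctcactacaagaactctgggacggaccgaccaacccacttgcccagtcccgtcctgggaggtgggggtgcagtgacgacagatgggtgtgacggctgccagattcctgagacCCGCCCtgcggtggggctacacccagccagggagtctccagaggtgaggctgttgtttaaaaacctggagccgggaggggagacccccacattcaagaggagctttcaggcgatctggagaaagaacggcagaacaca

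The AP-1 element occurred at 2 places in the LAMA3 window and at 0 in that of LAMB3, and both windows held 1 GC box. Of all 27305 windows in the table, 7.76% held TGANTCA and 44.6% held GGGCGG. A window was available for 34 of the 43 tested members. Of these, 1 held TGANTCA (LAMA3) and 24 held GGGCGG. These are matches of letters, in 1 window per gene, and gene counts do not tell which start was used.

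Laminin chains of other basement membranes were also lower. LAMC1, the gamma chain of most laminins, was at 546, 555 and 599.7 CPM in shRNF20 against 639, 759 and 827 CPM in shControl (log2 change -0.39, SE 0.10, edgeR adjusted p = 0.00975). LAMB1, a beta chain that pairs with it, was at 262, 261 and 266 CPM in shRNF20 against 338, 477 and 374 CPM in shControl (log2 change -0.59, SE 0.12, edgeR adjusted p = 0.00290). For both genes the groups did not overlap, although the gap was narrow for LAMC1. LAMA5, the alpha chain of many adult basement membranes, was at 469, 501 and 440.4 CPM in shRNF20 against 527, 911 and 774 CPM in shControl. Its fall (log2 change -0.65, SE 0.17, edgeR adjusted p = 0.0113) did not pass without shRNF20 replicate 3 (-0.62). LAMB2, the other widespread beta chain, was at 316, 322 and 290.1 CPM in shRNF20 against 331, 409.6 and 356 CPM in shControl. Its small difference (-0.24, SE 0.09, edgeR adjusted p = 0.0484) was lost in 11 of 16 alternatives.

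LAMA4, an alpha chain typical of vessels and muscle, was called lower (-1.22, SE 0.41, edgeR adjusted p = 0.0313), but its groups overlapped, at 3.08, 3.36 and 2.78 CPM in shRNF20 against 9.72, 8.84 and 2.73 CPM in shControl, and the call was lost in 7 alternatives. LAMA1 (-0.14, SE 0.17) and LAMA2 (0.48, SE 0.42), the alpha chains of embryonic and muscle basement membranes, did not pass. Of the 5 alpha chains 3 fell (29.8% of all tested genes did), with LAMA4 among the 3. LAMB4 and LAMC3 were not tested, at 5 to 13 counts and 0 to 1 counts per library.

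Perlecan and the nidogens tie laminin to type IV collagen. HSPG2, which encodes perlecan, a heparan sulfate proteoglycan, was at 174, 192 and 182 CPM in shRNF20 against 427, 583 and 349 CPM in shControl (log2 change -1.31, SE 0.17, edgeR adjusted p = 2.51e-04). Every shRNF20 library was below every shControl library. Exons of other genes cover 11.7% of its exon length, where reads were not counted. NID2 was called higher at very low counts, with 0.616, 0.636 and 0.457 CPM in shRNF20 against 0.339, 0.158 and 0.298 CPM in shControl (log2 change 1.07, SE 0.41, edgeR adjusted p = 0.0489). This call was lost in 13 alternatives. Other genes share 29.96% of the NID2 exon length, its 2 strand columns held 4.34 times as many reads as the count without strand, and with their sum the log2 fold change was 0.16. NID1 had 0 to 3 counts per library and was not tested.

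The type IV collagen genes did not all change in the same direction. COL4A1 and COL4A2, whose chains form the collagen of nearly all basement membranes, lie head to head on chromosome 13. COL4A1 (110148963 to 110307233, minus strand) was at 220.1, 225 and 220.0 CPM in shRNF20 against 144, 207 and 147 CPM in shControl. It was 1.33-fold higher with no overlap between groups (log2 change 0.42, SE 0.13, edgeR adjusted p = 0.0256). The call was lost in 6 of 16 alternatives, with shRNF20 replicate 1, 2 or 3 or shControl replicate 1 or 3 left out among them. Over these 5 fits the log2 change ranged from 0.30 to 0.41, and it was 0.58 without shControl replicate 2, where the call was kept. COL4A2 (110305812 to 110513209, plus strand) was at 380.1, 390.2 and 388 CPM in shRNF20 against 386, 529 and 354 CPM in shControl, with the shRNF20 values inside the control range (log2 change -0.13, SE 0.14, edgeR adjusted p = 0.429).

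The ratio of COL4A1 to COL4A2 per exon length varied little within each group and did not overlap between them. It was 0.758, 0.755 and 0.742 in shRNF20 and 0.488, 0.514 and 0.544 in shControl. The RefSeq starts of the pair are 127 bases apart, and their windows share 226 bases. The COL4A1 window (GRCh38.p14, chr13:110307108-110307407, minus strand) is shown because it holds the stretch between both starts. Capitals mark GGGCGG on either strand, which it holds at 2 places. It holds no TGANTCA.
COL4A1: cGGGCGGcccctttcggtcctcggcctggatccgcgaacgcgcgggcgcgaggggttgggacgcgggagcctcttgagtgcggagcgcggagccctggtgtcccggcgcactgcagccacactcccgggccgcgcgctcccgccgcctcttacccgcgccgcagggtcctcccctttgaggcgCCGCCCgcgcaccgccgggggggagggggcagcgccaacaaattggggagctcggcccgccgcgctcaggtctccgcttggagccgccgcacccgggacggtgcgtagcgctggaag

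COL4A3 and COL4A4, the second head-to-head pair, encode chains of the kidney, lung and inner ear basement membrane. COL4A4 was at 4.92, 4.59 and 5.06 CPM in shRNF20 against 14.1, 13.1 and 11.4 CPM in shControl and was 2.64-fold lower (log2 change -1.40, SE 0.14, edgeR adjusted p = 8.28e-05). COL4A3 was at 0.269, 0.318 and 0.562 CPM in shRNF20 against 1.32, 2.01 and 0.809 CPM in shControl (-1.82, SE 0.45, edgeR adjusted p = 0.00775). Both genes of this pair were lower in every shRNF20 library than in any shControl library. COL4A3 rests on 7, 7 and 16 counts in shRNF20 and 39, 51 and 19 in shControl. It passed the filter on low counts only through shControl, where it is high, so its fall is no evidence about the pair. The annotated starts of COL4A3 and COL4A4 are 112 bases apart in GENCODE 29 and 419 in RefSeq. Those of COL4A1 and COL4A2 are 1421 bases apart in GENCODE 29, where the genes overlap, and 127 in RefSeq.

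Of the 8 fibrillar collagens tested, 4 rose (28.7% of all tested genes did). Of these, COL11A2, COL24A1 and COL3A1 passed the filter on low counts only through shRNF20, where they are high, so the count is no evidence about the class. COL1A1, the main chain of type I collagen (ENSG00000108821.14, GRCh38 chromosome 17, 50183289 to 50201632), was at 29.4, 31.3 and 29.9 CPM in shRNF20 against 12.7, 13.1 and 13.9 CPM in shControl. Both groups were tight and far apart, and it rose 2.28-fold (log2 change 1.19, SE 0.10, edgeR adjusted p = 3.02e-05), a call kept in every alternative. COL1A2, its partner chain, was at 0.346, 0.590 and 0.492 CPM in shRNF20 against 1.69, 0.987 and 0.256 CPM in shControl, with overlapping groups (log2 change -1.07, SE 0.59, edgeR adjusted p = 0.153). COL1A2 was at -0.42 without shControl replicate 1, and it passed as lower without shControl replicate 3 (-1.51) and with no filter on low counts (-1.10). Per exon length COL1A1 exceeded COL1A2 by 60.2 to 96.4 times in shRNF20 and by 8.50 to 61.7 times in shControl.

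COL3A1, whose chain forms type III collagen, was at 1.12, 1.36 and 1.12 CPM in shRNF20 against 0.0677, 0.316 and 0 CPM in shControl (log2 change 3.18, SE 0.66, edgeR adjusted p = 0.00346). The control values rest on 2, 8 and 0 counts, and without shControl replicate 2 the log2 fold change was 4.81. It was 3.84 with limma-voom. COL24A1, a minor fibrillar collagen, was at 1.89, 1.77 and 1.55 CPM in shRNF20 against 0.135, 0.158 and 0.383 CPM in shControl (2.95, SE 0.41, edgeR adjusted p = 3.95e-04). Both were near 0 in the control cells and above 1 CPM in all 3 shRNF20 libraries. They passed the filter on low counts only through shRNF20, where they are high, so this pattern is no evidence of its own. COL11A2, a type XI chain, was also called higher (1.40, SE 0.38, edgeR adjusted p = 0.0124), but not without shRNF20 replicate 2 (1.16).

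COL5A1, a type V chain that sits inside type I fibrils, had the highest level per exon length of the fibrillar collagens (20.1 ± 1.505 in shRNF20 and 17.9 ± 3.04 in shControl, counts per kilobase and 1000000 counts) and did not pass. It was at 212, 218 and 244 CPM in shRNF20 against 238, 188 and 173 CPM in shControl (0.17, SE 0.12, edgeR adjusted p = 0.251). COL5A2 did not pass either (0.32, SE 0.29). COL27A1 was the only fibrillar collagen to fall, at 3.27, 3.90 and 3.62 CPM in shRNF20 against 7.79, 4.54 and 6.52 CPM in shControl (-0.81, SE 0.22, edgeR adjusted p = 0.0138). That call was lost without shRNF20 replicate 1 (-0.75).

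**Figure D2:**
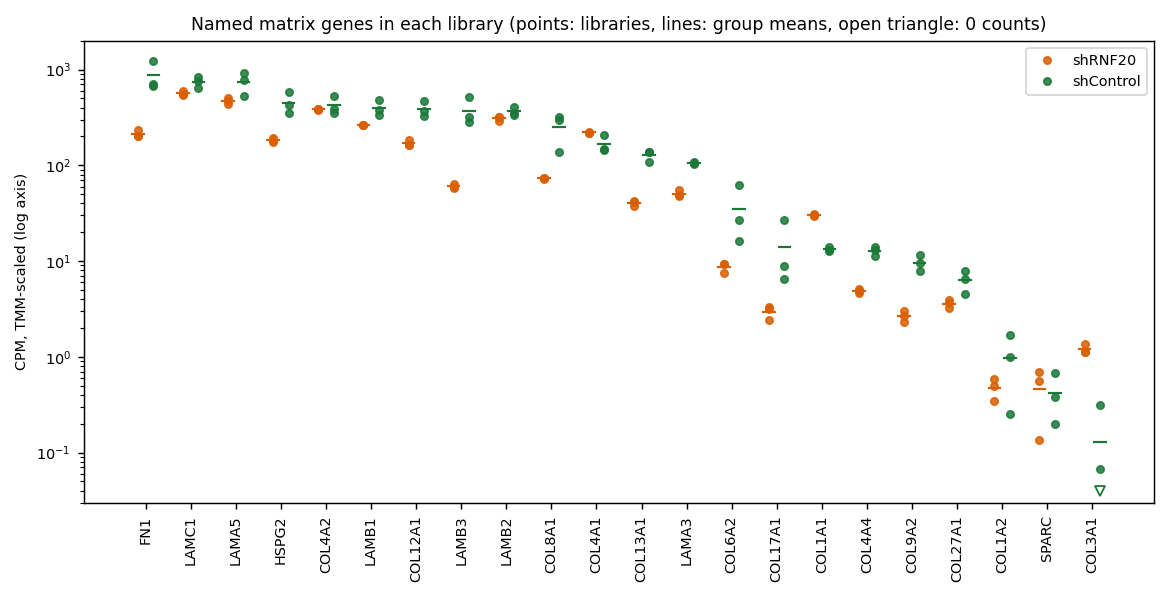
CPM (log axis) of 22 matrix genes in each library, with shRNF20 left of shControl, points for libraries and lines for group means, ordered by the shControl mean. The shRNF20 points lie close together, and COL1A1, COL4A1 and COL3A1 are higher in shRNF20 than in every shControl library. COL3A1 was tested only because of its level in shRNF20.

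Among the small leucine-rich proteoglycans LUM rose and FMOD fell. LUM, which encodes lumican (chromosome 12, 91102629 to 91111831), was at 6.39, 6.13 and 7.49 CPM in shRNF20 against 1.12, 0.711 and 0.767 CPM in shControl. The groups were well apart and the rise was 7.62-fold (log2 change 2.93, SE 0.24, edgeR adjusted p = 3.19e-05), kept in every alternative. DCN, which encodes decorin and lies 28653 bases from LUM, had 1 to 4 counts in the shRNF20 libraries and 2 to 14 in the shControl libraries and was not tested. FMOD, which encodes fibromodulin, was called lower at low counts (-1.40, SE 0.45, edgeR adjusted p = 0.0252) with overlapping groups, and lost the call in 4 alternatives.

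COL1A1, COL3A1 and LUM are genes that fibroblasts also express, so fibroblast markers were examined beside them. Of 12 such markers 4 were tested. PDGFRB averaged 19.9 ± 0.937 CPM in shRNF20 and 5.03 ± 2.68 CPM in shControl (SD, n = 3), and TAGLN 42.4 ± 2.56 CPM in shRNF20 and 12.7 ± 6.90 CPM in shControl, and both rose. ACTA2 and PI16 fell (-2.53 and -3.76), ACTA2 by more with the summed strand columns (-3.18). The summed level of the 12 was 60.3 to 66.7 CPM in shRNF20 and 12.4 to 32.2 CPM in shControl. DPT and TWIST2 had 0 counts in every library, and PDGFRA, THY1, FAP, PDPN, POSTN and TCF21 did not exceed 0.197 CPM in any. Of 8 endothelial markers PECAM1 and TIE1 fell (-2.95 and -4.08, TIE1 at -3.44 without shControl replicate 2) and KDR did not pass, with the summed level of the 8 at 8.23 to 9.10 CPM in shRNF20 and 14.6 to 24.1 CPM in shControl. Of 8 leukocyte markers CD14 rose (1.12), PTPRC (-1.04) and CD79A (-0.90) did not pass (CD79A was at -0.24 without shControl replicate 2 and passed as lower without shControl replicate 3, at -1.36), MS4A1 had 0 counts in every library, and the sum was 3.46 to 4.68 CPM in shRNF20 and 2.001 to 3.71 CPM in shControl. The part of these markers in the matrix results was not tested.

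Fibronectin mRNA fell 4.12-fold. FN1 (ENSG00000115414.21, GRCh38 chromosome 2, 215360440 to 215436172), a glycoprotein that cells assemble into fibrils and bind through integrins, was at 203, 201 and 233 CPM in shRNF20 against 709.6, 678 and 1234 CPM in shControl. The lowest control library was over every shRNF20 library by a wide gap (log2 change -2.04, SE 0.22, edgeR adjusted p = 1.08e-04), and the call was kept in every alternative. Its RefSeq window (GRCh38.p14, chr2:215436019-215436318, minus strand) is shown because FN1 fell strongly and its window is rich in GC boxes. Capitals mark the 6 matches to GGGCGG, of which some overlap, and it holds no TGANTCA.
FN1: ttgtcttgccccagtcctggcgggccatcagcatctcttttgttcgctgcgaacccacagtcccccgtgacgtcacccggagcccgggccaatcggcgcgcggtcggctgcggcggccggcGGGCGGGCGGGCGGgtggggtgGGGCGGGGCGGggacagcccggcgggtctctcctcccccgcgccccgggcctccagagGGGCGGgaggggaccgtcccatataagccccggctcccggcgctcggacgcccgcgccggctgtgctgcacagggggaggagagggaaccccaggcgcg

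FBN1, the main fibrillin of elastic microfibrils, did not pass, at 128, 131 and 159 CPM in shRNF20 against 155, 184 and 162 CPM in shControl (-0.26, SE 0.11, edgeR adjusted p = 0.0609). FBN2 did not pass (0.24, SE 0.38). SPARC, a collagen-binding matricellular protein that fibroblasts make in quantity, was barely present in these cells, at 0.693, 0.136 and 0.562 CPM in shRNF20 against 0.677, 0.197 and 0.383 CPM in shControl. No difference in SPARC was detectable at this depth (0.15, SE 0.61, edgeR adjusted p = 0.843).

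Of the FACIT collagens 3 of 10 were tested and 2 fell (29.8% of all tested genes did), too few to describe the class. COL12A1, which coats type I fibrils, was at 164, 165 and 186 CPM in shRNF20 against 465, 328 and 368 CPM in shControl (log2 change -1.18, SE 0.13, edgeR adjusted p = 1.16e-04). COL9A2, a type IX chain known from cartilage, was at 2.31, 2.996 and 2.67 CPM in shRNF20 against 11.5, 9.47 and 7.96 CPM in shControl (-1.86, SE 0.20, edgeR adjusted p = 1.02e-04). In both genes the groups did not overlap. COL16A1 did not pass (0.45, SE 0.28).

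The type VI collagen genes, whose chains form beaded filaments, differed widely between the control libraries. COL6A2 was at 7.54, 9.31 and 9.38 CPM in shRNF20 against 62.6, 27.0 and 16.2 CPM in shControl (log2 change -2.02, SE 0.43, edgeR adjusted p = 0.00394), and at -1.32 without shControl replicate 1. Its call was lost with no filter on low counts and with the shRNF20 libraries summed. COL6A3 was at 0.923, 1.13 and 0.562 CPM in shRNF20 against 9.65, 5.72 and 3.45 CPM in shControl (-2.86, SE 0.43, edgeR adjusted p = 5.97e-04). COL6A1 was at 38.1, 37.1 and 35.0 CPM in shRNF20 against 87.4, 56.3 and 30.4 CPM in shControl and did not pass (-0.66, SE 0.31, edgeR adjusted p = 0.0927). All 3 of these genes were highest in shControl replicate 1 and lowest, within that group, in shControl replicate 3. COL6A1 exceeded COL6A2 per exon length by 5.10, 4.02 and 3.76 times in shRNF20 and by 1.41, 2.10 and 1.89 times in shControl.

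COL8A1, a short network-forming collagen of vessel walls and other subendothelial matrix, was at 73.5, 73.9 and 71.7 CPM in shRNF20 against 321, 294 and 137 CPM in shControl (log2 change -1.78, SE 0.27, edgeR adjusted p = 6.50e-04). Its groups were apart, with shControl replicate 3 the lowest of its group. COL7A1, which forms the anchoring fibrils that hold the epidermal basement membrane, did not pass, at 148, 151 and 144 CPM in shRNF20 against 136, 225 and 307 CPM in shControl (-0.59, SE 0.24, edgeR adjusted p = 0.0615). COL8A2 did not pass (0.01, SE 0.44).

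Both transmembrane collagens with enough counts fell (29.8% of all tested genes did). COL13A1, found at cell-matrix adhesions, was at 41.4, 42.9 and 37.6 CPM in shRNF20 against 108, 138 and 139 CPM in shControl (log2 change -1.66, SE 0.11, edgeR adjusted p = 1.70e-05). COL17A1, a hemidesmosome collagen of basal epithelial cells, was at 3.19, 2.41 and 3.30 CPM in shRNF20 against 27.1, 6.55 and 8.90 CPM in shControl (-2.26, SE 0.50, edgeR adjusted p = 0.00485). COL17A1 rested in part on shControl replicate 1, without which its log2 fold change was -1.39, and lost its call with no filter on low counts and with the shRNF20 libraries summed. The multiplexins COL18A1 (-0.12, SE 0.09), source of endostatin, and COL15A1 (-0.52, SE 0.36) did not pass.

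The 21 members that were not tested had 0 to 17 counts per library. COL22A1, COL5A3, COL26A1 and COL6A5 had 0 counts in all 6, which allows up to 0.102 to 0.136 CPM per library (3 counts, for counting error only). The others were COL14A1, COL19A1, COL20A1, COL21A1, COL9A1, COL9A3, COL11A1, COL2A1, LAMB4, LAMC3, COL10A1, COL28A1, COL6A6, NID1, DCN, COL23A1 and COL25A1.

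Levels can be set beside each other only per length. In counts per kilobase of exon and 1000000 counts, LAMC1 was the highest member in both groups, at 67.5 ± 3.40 in shRNF20 and 88.2 ± 11.3 in shControl (SD, n = 3). In shControl LAMB3 came next, at 79.4 ± 26.0. Below it lay LAMB2 at 53.3 ± 5.83, LAMA5 at 51.6 ± 13.6 and FN1 at 50.5 ± 18.0, which are within their SD of each other. In shRNF20 the order was LAMC1, LAMB2 (45.1 ± 2.47), LAMA5 (32.9 ± 2.12) and LAMB1 (32.3 ± 0.358), while LAMB3 was at 12.9 ± 0.687 and FN1 at 12.3 ± 1.03, below COL18A1, COL5A1, COL4A2 and COL4A1. The order depends on the length used: by coding length FN1 and COL8A1 stood above LAMB3 in shControl, and COL4A2 stood above LAMB2 and LAMA5 in shRNF20.

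**Figure D3:**
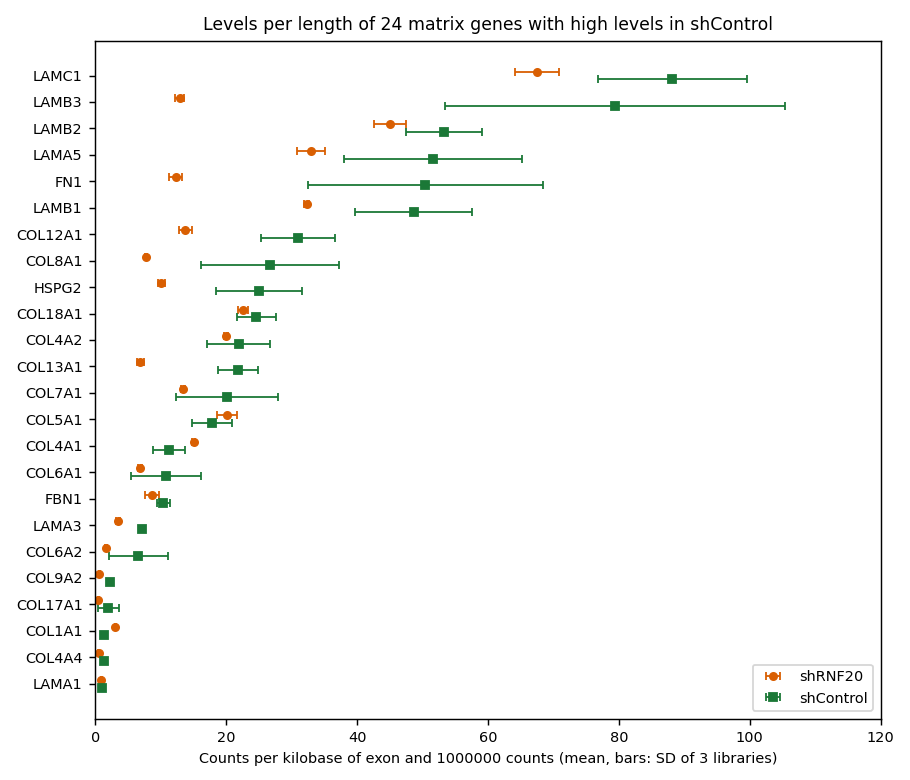
Mean level (points) in counts per kilobase of exon and 1000000 counts (horizontal axis), with bars for the SD of 3 libraries, of 24 matrix genes with high levels in shControl, shRNF20 above shControl in each row. LAMB3 and FN1 lie far to the left of their control values, while COL4A1 and COL1A1 lie to the right. COL5A1 also lies to the right, but its bars overlap and it did not pass.

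The chains LAMA5 and LAMC1 meet in the main laminin of adult basement membranes. Per exon length LAMA5 was 0.505, 0.531 and 0.432 of LAMC1 in shRNF20 against 0.485, 0.706 and 0.550 in shControl, with overlapping groups. The LAMA5 counts leave out reads shared with other genes, whose exons cover 2.54% of the LAMA5 exon length. Its strand columns together held 1.22 times as many reads as the count without strand.

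**Figure D4:**
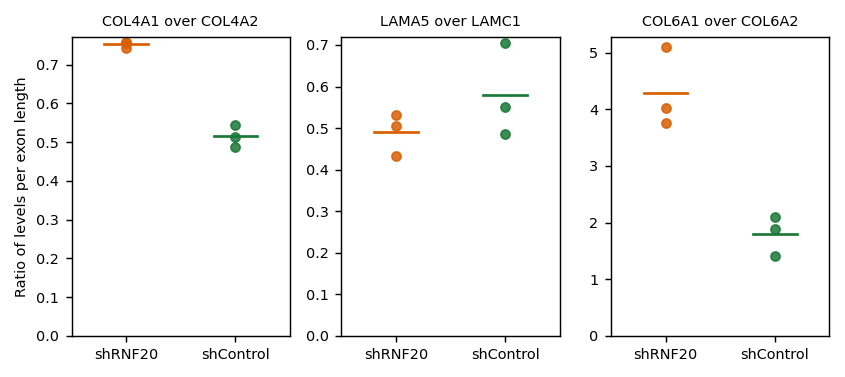
Ratios of 2 chains of a trimer per exon length in each library (points) with group means (lines), shRNF20 left of shControl, each panel with its own axis from 0. The ratio of COL4A1 to COL4A2 and that of COL6A1 to COL6A2 do not overlap between groups.

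Members varied more between the shControl libraries than between the shRNF20 libraries. The median coefficient of variation of the 43 was 8.82% in shRNF20 and 32.2% in shControl, and 39 of the 43 had the larger value in shControl. Over all tested genes 80.2% did, with medians of 6.01% in shRNF20 and 14.7% in shControl. Among the 43, 19 had every shRNF20 library below every shControl library (32.8% of all tested genes) and 7 had every one above (33.5% of all tested genes).

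The enzymes that make and crosslink collagen changed in both directions. Of 34 tested genes of collagen modification, export, trimming and crosslinking, 15 fell and 7 rose, with a median of -0.29. That is 44.1% and 20.6%, against 29.8% and 28.7% of all tested genes. The crosslinking oxidase LOXL1 averaged 7.18 ± 0.329 CPM in shRNF20 and 36.3 ± 14.8 CPM in shControl (log2 change -2.34, SE 0.26, edgeR adjusted p = 1.35e-04). The prolyl 3-hydroxylase P3H1 averaged 86.3 ± 1.51 CPM in shRNF20 and 151 ± 5.60 CPM in shControl (-0.81, SE 0.07, edgeR adjusted p = 3.19e-05). SEC24D, a coat protein of the vesicles that carry procollagen out of the endoplasmic reticulum, averaged 49.0 ± 2.60 CPM in shRNF20 and 112 ± 11.99 CPM in shControl (-1.20, SE 0.09, edgeR adjusted p = 2.81e-05). The crosslinkers LOX (-1.17), LOXL4 (-2.60) and TGM2 (-2.09) also fell, whereas LOXL2 (0.15) and LOXL3 (-0.44) did not pass. LOXL2 averaged 531 ± 10.3 CPM in shRNF20 and 479 ± 36.8 CPM in shControl. The procollagen protease BMP1 (0.51), the collagen chaperone SERPINH1 (0.23) and the lysyl hydroxylase PLOD2 (0.30) rose. The rises numbered 7 in all but only 3 or 4 with any 1 shRNF20 library left out.

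Receptors that bind these matrix proteins fell more often than they rose. Of 21 tested, 9 fell and 1 (DDR2, 0.92) rose, with a median of -0.31. Across all tested genes 29.8% fell and 28.7% rose. In all 47.6% of the receptors passed, against 58.4% of all tested genes. No receptor rose without shControl replicate 3, shRNF20 replicate 1 or shRNF20 replicate 2. ITGA3, the alpha chain of a laminin receptor, averaged 481 ± 12.5 CPM in shRNF20 and 1166 ± 94.6 CPM in shControl (log2 change -1.28, SE 0.08, edgeR adjusted p = 1.13e-05). ITGB4, the hemidesmosomal integrin chain that binds laminin with ITGA6, averaged 78.3 ± 4.27 CPM in shRNF20 and 217 ± 39.1 CPM in shControl (-1.47, SE 0.13, edgeR adjusted p = 3.90e-05), and ITGA6 fell as well (-0.86). The collagen-binding integrin chains ITGA1 (-1.89, SE 0.12, edgeR adjusted p = 1.33e-05) and ITGA2 (-1.11) fell. ITGB1, the shared beta chain of most of these receptors, did not pass (0.05). ITGA5, the alpha chain of the main fibronectin receptor, did not pass either (0.13).

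Among other matrix proteins more fell than rose, with 12 of 29 tested falling and 5 rising (median -0.46). ECM1, a glycoprotein that binds perlecan, averaged 35.8 ± 2.06 CPM in shRNF20 and 117 ± 33.2 CPM in shControl (log2 change -1.71, SE 0.19, edgeR adjusted p = 1.43e-04). AGRN, a basement membrane proteoglycan related to perlecan, also fell (-0.98). The matricellular genes CCN1 (1.29, SE 0.09, edgeR adjusted p = 1.67e-05) and CCN2 (0.92, SE 0.10, edgeR adjusted p = 1.16e-04) rose, as did NTN4 (0.64), MFAP2 (1.04) and CHAD (1.01). Without shControl replicate 2 or shRNF20 replicate 3 the rises numbered 3. The shares of these lists that fell, 44.1% for processing, 42.9% for receptors and 41.4% for other matrix proteins, stand beside 29.8% of all tested genes. Those that rose, 20.6% for processing, 4.76% for receptors and 17.2% for other matrix proteins, stand beside 28.7% of all tested genes.

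**Figure D5:**
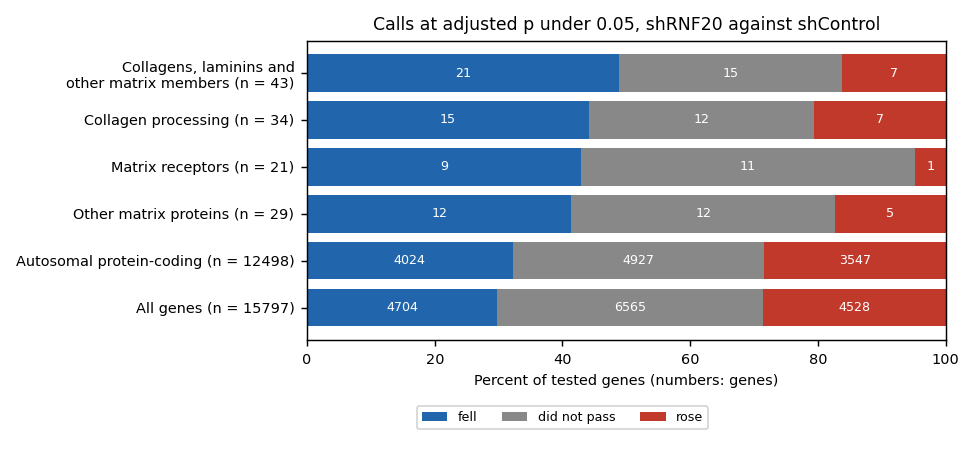
Percent of tested genes that fell, did not pass or rose (adjusted p under 0.05) among the matrix members, 3 lists of related genes, autosomal protein-coding genes and all genes, with the number of genes in each block. The part that fell is 48.8% of the matrix members and 29.8% of all genes.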

How the data were processed

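RNA purified with an RNeasy kit went to a sequencing company for library preparation, per the labels' protocols. The submitters' processing notes name FastQC 0.12.1, STAR 2.7.11a and the build hg38. The annotation release and trimming steps: not given in the sources used here. As files, the authors deposited raw read counts per gene, without strand (used here) and for each strand. Reads over exons of more than 1 gene (10.7% to 11.2%) are not in a gene's count, and lines that name no gene (20.9% to 24.1% of reads) were left out.

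Symbols were matched by identifier for 62686 of 62703 genes, and positions, types and lengths came from GENCODE 29 (58264 genes). One symbol of the processing list was not matched, leaving 35 of its genes. Counts were fitted with R 4.3.3 and edgeR 4.0.16 (filterByExpr, minimum count 10; TMM; robust quasi-likelihood F-test; Benjamini-Hochberg over all 15797 tested genes; threshold 0.05). The SE is the log2 fold change over the root of F. Promoter windows are from RefSeq.

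The members, lists, rule for named genes and alternatives were chosen with earlier results of these data known. Values in every library are given for members that passed with an average log2-CPM of at least 2 and groups that did not overlap, and for COL1A1, COL1A2, COL3A1, COL4A1, COL4A2, LAMA3, LAMB3, LAMA5, LAMB1, LAMC1, FN1 and SPARC; of each list the 3 with the smallest p are named. The values of 1 tested member are not reported here, though the counts over all members include it. Values of other members and list genes were added after they were seen. The fit was tested on simulated data. Alternatives used DESeq2 1.42.0 and limma 3.58.1 (voom), among others.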

Additional observations from a re-analysis of the deposited data

How the results depend on the processing

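Of 28 members called, 14 kept the call in each of the 16 alternatives in which they were tested, and 8 of the 15 not called passed in at least 1. No member that passed in any fit changed sign; COL4A2, COL8A2 and SPARC, which passed in none, did. With the 3 shRNF20 libraries summed to 1 sample, 3 members rose and 11 fell, against 1642 and 1753 of all genes; the list of processing genes then had 0 rises and 7 falls, receptors 0 rises, and other matrix proteins 2 rises and 7 falls. That fit has 1 sample in a group, whose spread is taken from shControl. Among receptors it gave as many falls as the fit with the shRNF20 libraries kept apart. With 1 library left out, 4 to 7 members rose and 17 to 22 fell, and the members' median ranged from -0.62 to -0.33 (-0.33 without shControl replicate 1 and -0.39 without shControl replicate 3); 4 rose without shRNF20 replicate 2. Over the same fits processing genes had 3 to 9 rises, receptors 0 to 3 and other matrix proteins 3 to 6. Without a filter on low counts processing genes had 4 rises and receptors 2, and receptors had 2 with DESeq2. The cause was not tested.

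Replicate numbers in the labels did not pair the libraries (correlations of same-numbered deviations of -0.02, 0.03 and 0.03). With the replicate number as a block, 6 members rose and 21 fell, 2 receptors rose and only the NID2 call was lost.

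With coding length in place of exon length, COL4A1 over COL4A2 was 0.589 in shRNF20 and 0.403 in shControl, and LAMA5 over LAMC1 was 0.351 in shRNF20 and 0.417 in shControl. Members under about 1 CPM rest on few counts, which limits the precision of their folds.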
